A study of Mus musculus with 36 samples.

Results

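Fatty acid oxidation breaks acyl chains down to acetyl-CoA, in mitochondria for most chains and in peroxisomes for the very long and branched ones. In the liver it feeds ketone body synthesis during fasting, and the nuclear receptor PPAR alpha (gene Ppara), which binds fatty acids and pairs with a retinoid X receptor, switches on many of its genes. The 37 genes described here are Ppara, its partner regulator Creb3l3, and a list of enzymes, carriers and other known PPAR alpha targets. They were found by gene symbol in a table of raw read counts. All 37 are among its 32544 symbols, and all 37 were among the 15338 genes with enough counts to test. By the place of the protein, 17 are mitochondrial, 10 are peroxisomal, and 10 act in the nucleus, the cytosol, outside the cell or in several places.

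The livers came from male C57BL/6N mice that entered the study at 8 to 10 weeks of age. Carbon tetrachloride (CCl4), a solvent that liver cytochromes turn into a toxic radical, was injected into the peritoneum 2 times a week at 1 g per kg in olive oil for 2, 6 or 12 months. Mice that received olive oil alone were sampled at months 2 and 12, and a month 0 group, whose titles say control while its treatment label says olive oil, was sampled at the start. Each of the 6 groups had 6 livers, those of injected mice taken on day 6 after the last injection, and no month 6 oil group was analysed here. Month 6 CCl4 livers were therefore set against both oil groups, with equal weight to each. Nothing in the labels says more of how the livers of a group are related, so p-values measure the spread between these livers.

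The 36 libraries held 19403247 to 28917545 counts. The unit of level is CPM, a count relative to its library size, after TMM adjustment, which sets the bulk of genes to no change. Scaling by library totals alone put the median gene 0.20 higher at month 2, 0.31 higher at month 6 and 0.56 higher at month 12 (log2, CCl4 over oil), so every change here is relative to the bulk of genes. A gene is called where the adjusted p of edgeR's quasi-likelihood test over the 15338 genes is under 0.05. In whole liver, fewer cells of a type and less RNA per cell cannot be told apart. The defining hepatocyte markers were abundant in every liver: 9 of the 10 listed were in the table, and their summed level was 70186 to 106268 CPM in month 12 CCl4 livers and 70907 to 118471 CPM in month 12 oil livers, with 6 of the 9 called lower (median log2 change -0.76).

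PPAR alpha binds 2 copies of the unit AGGNCA (N is any base) in the same direction, 1 base apart. RefSeq promoter windows (mm10, GRCm38.p6, 250 bases before to 50 after a gene's start) were searched for 31 of the 37 genes, 36 windows. No window of Acaa2, Angptl4, Crat, Vnn1, Decr1 or Abcd2 was among these 36. The pair of copies was searched on both strands and was found in 1 of the 31 genes, Fabp1, and in 0.381% of all 32851 windows. It lies at chr6:71199812-71199824, 67 bases before the start that RefSeq gives; the GENCODE gene model used for gene positions here starts further upstream, at 71199827. The window below is shown because Fabp1, the most abundant of the 37 transcripts per length, also had the steepest fall at month 12. It covers chr6:71199629-71199928 on the plus strand, 5′ to 3′, and capitals mark the pair of copies and one more single copy of AGGTCA, all on the minus strand.
Fabp1: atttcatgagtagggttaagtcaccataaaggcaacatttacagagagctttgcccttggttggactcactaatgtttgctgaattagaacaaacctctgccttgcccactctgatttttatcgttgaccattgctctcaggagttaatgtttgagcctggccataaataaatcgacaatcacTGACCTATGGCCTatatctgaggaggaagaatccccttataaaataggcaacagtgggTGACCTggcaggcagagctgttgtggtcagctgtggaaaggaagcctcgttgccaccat

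A single copy of AGGTCA, on either strand and counting those inside the pair, was found in 9 of the 31 genes and in 16.3% of all windows. The stretches around it are shown for 5 genes that differ in what CCl4 did to them: Slc27a2 and Acot12 were lower at month 12, Acot3 was higher, and Cpt1a and Acot4 were not called. The stretches are chr2:126552774-126552839, chr13:91741381-91741446, chr12:84052132-84052197, chr19:3323177-3323242 and chr12:84038336-84038401 in the order printed, all on the plus strand with the copy in capitals. A match describes these letters and is not a measured binding site.
Slc27a2: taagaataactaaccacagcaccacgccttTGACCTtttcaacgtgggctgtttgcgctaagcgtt
Acot12: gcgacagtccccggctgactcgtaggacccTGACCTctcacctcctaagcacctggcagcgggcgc
Acot3: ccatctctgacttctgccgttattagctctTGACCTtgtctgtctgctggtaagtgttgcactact
Cpt1a: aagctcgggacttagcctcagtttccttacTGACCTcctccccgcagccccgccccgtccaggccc
Acot4: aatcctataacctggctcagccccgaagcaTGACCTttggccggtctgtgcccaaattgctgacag

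Per kilobase of exon, Fabp1 stood first and Acaa2, the mitochondrial thiolase that releases acetyl-CoA, second in every group. Fabp1 reached 1716 CPM per kilobase in month 12 CCl4 livers and 5829 in month 12 oil livers. Acaa2 reached 276 and 432 CPM per kilobase in the same groups. Slc27a2, Acaa1b and Acadvl came next in most groups, and Pdk4 and the thioesterases Acot1 to Acot4 were among the lowest 6 in every group, joined by Abcd2 in month 0, month 2 oil, month 6 CCl4 and month 12 oil livers. Acsl1 held rank 20 of 37 in month 12 CCl4 livers and rank 7 in month 12 oil livers, while Vnn1 held rank 23 and rank 31. Some reads of a few of these genes cannot be assigned by sequence alone. Of all 125-base windows, 125 being the read length, 48.3% of Hadhb were shared with Gm13910, 16.6% of Acaa1a and 17.4% of Acaa1b with each other, 16.9% of Acot1 and 13.7% of Acot2 mainly with each other, and 12.7% of Acot3, mainly with Gm49366. The other 31 genes shared none.

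**Figure D1:**
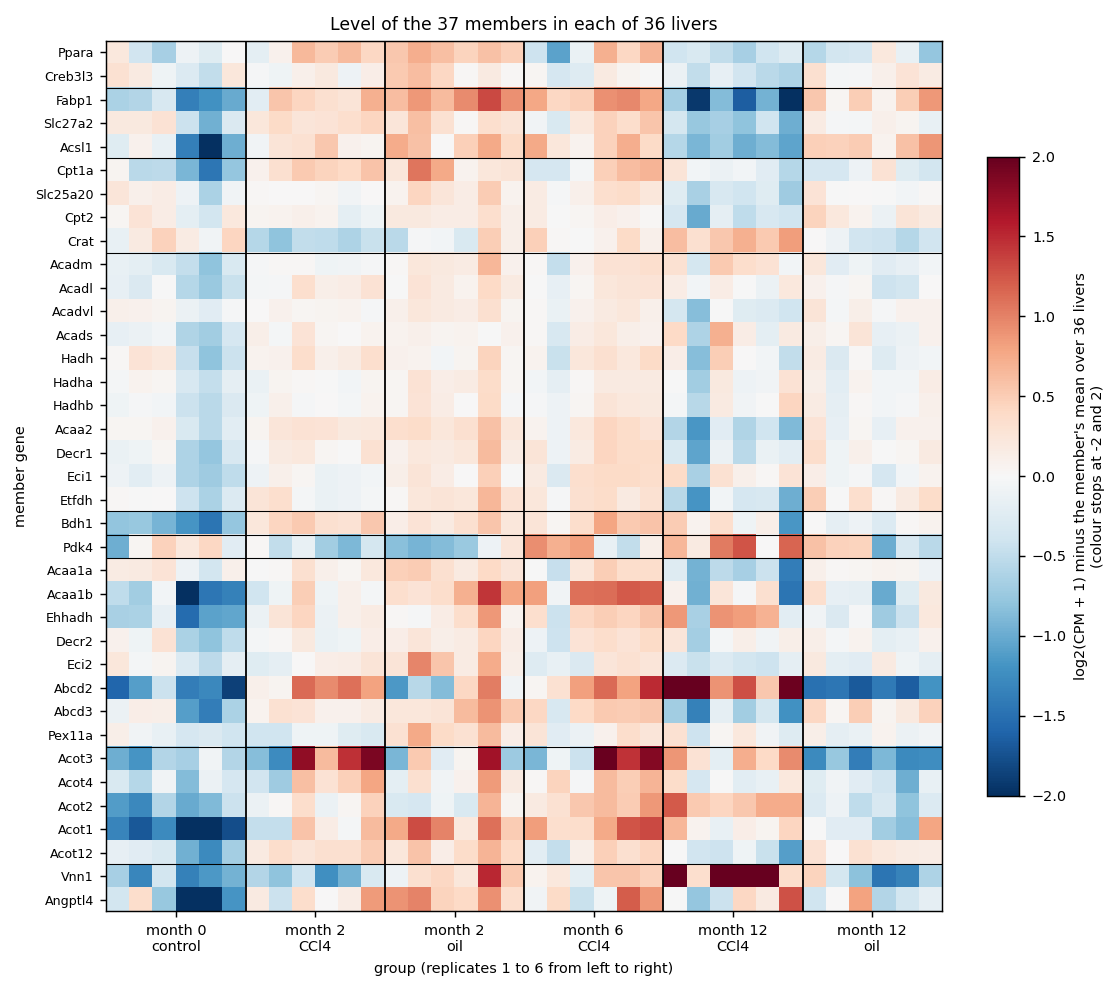
Level of the 37 genes (rows, grouped by role) in the 36 livers (columns, replicates 1 to 6 from left to right in each group), as log2(CPM + 1) minus the gene's mean over all livers, with colour stopping at -2 and 2. Month 0 livers are pale to blue for most genes, and in month 12 CCl4 livers Fabp1 and Acsl1 are blue while Abcd2 and Vnn1 are red.

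At month 12 of CCl4, Fabp1, Acsl1 and Slc27a2, which bind, import or activate fatty acids, were lower, while Abcd2, Acot3 and Vnn1 were 10.1-fold, 9.01-fold and 5.74-fold higher. Of the 37 genes, 7 were called higher and 13 lower in CCl4 livers than in oil livers, against 25.9% and 23.2% of all genes tested. That is 18.9% and 35.1% of the 37. The median log2 change of the 37 was 0.01, beside 0.01 over all genes. In 4 genes every CCl4 liver was above every oil liver (Crat, Abcd2, Acot3 and Acot2) and in 12 every CCl4 liver was below, where 12.1% and 10.2% of all genes did so. With scaling by library totals alone 22 were called higher and 2 lower: Fabp1 and Acsl1 stayed lower, and Creb3l3, Slc25a20, Acadvl and Decr1 of the 13 moved above 0, to between 0.04 and 0.12.

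All 3 of the 37 genes that bind, import or activate fatty acids were lower. With scaling by library totals alone all 3 stayed below 0, but Slc27a2 lost the call (log2 change -0.11, adjusted p = 0.527). Fabp1 (chr6:71199827-71205023, plus strand), the cytosolic fatty acid-binding protein of hepatocytes, had 302, 995 and 1475 CPM (lowest, median, highest) in month 12 CCl4 livers, against 2424, 3324 and 4316 CPM in month 12 oil livers. No CCl4 liver reached the lowest oil liver. Its level was 3.40-fold lower (log2 change -1.76, SE 0.25, adjusted p = 5.66e-07). Acsl1 (chr8:46471037-46536051, plus strand), a long-chain acyl-CoA synthetase, had 236, 264 and 333 CPM in CCl4 livers and 519, 694 and 909 CPM in oil livers. It was 2.56-fold lower (log2 change -1.36, SE 0.22, adjusted p = 5.81e-06), and its CCl4 livers were close together. Slc27a2, an acyl-CoA synthetase and transporter for very long chains, averaged 466 ± 79.0 CPM in CCl4 livers and 738 ± 56.8 CPM in oil livers (SD, n = 6 each), a log2 change of -0.66 (SE 0.16).

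The carnitine shuttle carries acyl chains into mitochondria, and its members did not move together. Cpt1a, the gated entry step on the outer membrane, averaged 228 ± 42.5 CPM in CCl4 livers and 220 ± 42.3 CPM in oil livers, and its log2 change of 0.06 had a 95% interval of -0.35 to 0.46. Slc25a20, the carrier of the inner membrane, had 40.5, 51.9 and 56.3 CPM in CCl4 livers, against 64.1, 66.9 and 81.4 CPM in oil livers, a log2 change of -0.47 (adjusted p = 0.000485). Cpt2, which hands the chain back to CoA, had 36.1, 56.6 and 64.6 CPM in CCl4 livers, against 68.1, 84.5 and 101 CPM in oil livers. Its log2 change was -0.63 (adjusted p = 7.54e-06). Crat, which moves acetyl and other short groups between carnitine and CoA, ran the other way: it had 28.9, 34.5 and 41.5 CPM in CCl4 livers and 15, 17.4 and 23.1 CPM in oil livers, with no overlap. It was 1.90-fold higher (log2 change 0.93, SE 0.14, adjusted p = 1.14e-06).

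Of the 11 genes of the mitochondrial spiral itself, 4 were lower and 0 were higher, beside 23.2% and 25.9% of all genes tested. DESeq2 and limma-voom gave the same counts. At an unadjusted p under 0.05, 1 was higher (Acadm). With scaling by library totals alone 7 were higher and 0 lower. The lower genes were Acadvl, the dehydrogenase for very long chains (log2 change -0.42), Acaa2 (-0.65), Decr1, which reduces unsaturated chains (-0.47, and like Acadvl above 0 with library totals alone), and Etfdh, which passes the electrons to the respiratory chain (-0.76). Etfdh had 90.1, 151 and 198 CPM in CCl4 livers and 203, 245 and 287 CPM in oil livers. Hadha and Hadhb, the 2 subunits of the trifunctional protein, had log2 changes of -0.04 and 0.01, with 95% intervals of -0.26 to 0.18 and -0.21 to 0.22. Acadl, Acads, Hadh and Eci1 had changes between 0.02 and 0.17 and were not called.

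Pdk4, a kinase that shuts pyruvate dehydrogenase when fat is burned, was 1.79-fold higher in CCl4 livers (log2 change 0.84, SE 0.34, adjusted p = 0.038). Its livers overlapped: it had 5.49, 10.8 and 14.6 CPM in CCl4 livers and 2.26, 5.99 and 8.79 CPM in oil livers. The call was lost when any 1 of 6 livers was left out (CCl4 replicates 3, 4 and 6 and oil replicates 4, 5 and 6), with the change between 0.65 and 0.80. Bdh1, which makes hydroxybutyrate from acetoacetate, had 65.4, 158 and 209 CPM in CCl4 livers and 121, 142 and 154 CPM in oil livers, a spread in CCl4 livers wider than the difference of the means.

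Of the 10 peroxisomal genes 3 were higher and 2 lower (30% and 20%, near the shares of all genes, 25.9% and 23.2%), and with scaling by library totals alone 6 were higher and 0 lower. Abcd2 (chr15:91145871-91191799, minus strand), a transporter of very long acyl-CoA into peroxisomes, had 22.6, 50.5 and 78.1 CPM in month 12 CCl4 livers, against 4.08, 4.89 and 6.13 CPM in month 12 oil livers. The lowest CCl4 liver was well above the highest oil liver, and the level was 10.1-fold higher (log2 change 3.34, SE 0.36, adjusted p = 5.01e-09), the largest change among the 37. Abcd3 (chr3:121758774-121815302, minus strand), a related transporter that takes branched chains, had 158, 250 and 355 CPM in CCl4 livers and 414, 501 and 572 CPM in oil livers. It was 1.98-fold lower (log2 change -0.98, SE 0.21, adjusted p = 0.000233).

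Ehhadh, the bifunctional enzyme of peroxisomal oxidation, was 1.64-fold higher (log2 change 0.71, SE 0.23, adjusted p = 0.0101). In CCl4 livers it had 365, 128, 376, 357, 323 and 173 CPM (replicates 1 to 6), against 122, 177 and 231 CPM (lowest, median, highest) in oil livers. Replicates 2 and 6 lay inside the oil range and the other 4 above it. The thiolases split: Acaa1a had 40.3, 70.4 and 89.3 CPM in CCl4 livers and 99.1, 110 and 114 CPM in oil livers (log2 change -0.69, adjusted p = 0.00012). Acaa1b had 427, 207, 479, 395, 502 and 146 CPM in CCl4 livers, with replicates 2 and 6 again lowest, and 201, 357 and 509 CPM in oil livers. Its change of -0.05 was not called. Decr2, Eci2 and Pex11a, which serve unsaturated chains and peroxisome division, had changes of -0.01, -0.29 and 0.04 and were not called.

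The acyl-CoA thioesterases release free fatty acid from CoA. Mitochondrial Acot2 had 4.45, 5.33 and 8.53 CPM in CCl4 livers and 1.31, 2.30 and 2.77 CPM in oil livers, a 2.65-fold higher level (log2 change 1.40, SE 0.23, adjusted p = 8.16e-06). Peroxisomal Acot3 had 1.60, 3.38 and 4.71 CPM in CCl4 livers and 0.136, 0.240 and 0.752 CPM in oil livers. The oil levels rest on 3 to 19 counts a library, and the log2 change was 3.17 (SE 0.79, adjusted p = 0.00117). Mean Acot3 was 0.906 CPM at month 0 and 2.78 CPM in month 2 oil livers. It was 5.11, 5.15 and 3.35 CPM in CCl4 livers at months 2, 6 and 12. The month 12 change is thus taken against a lower oil level (0.363 CPM) than that of month 2. Acot1 in the cytosol and Acot4 in peroxisomes had changes of 0.39 and 0.34 and were not called. Acot12, which cleaves acetyl-CoA in the cytosol, was lower (log2 change -0.57, adjusted p = 0.00563).

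Vnn1 (chr10:23894688-23905343, plus strand), a pantetheinase tethered to the cell surface, had 61.7, 15.6, 67.6, 60.7, 54.2 and 15.8 CPM in month 12 CCl4 livers (replicates 1 to 6), against 3.75, 6.98 and 16.9 CPM (lowest, median, highest) in month 12 oil livers. Replicates 2 and 6, also lowest for Ehhadh and Acaa1b, were below the highest oil liver, and the other 4 were above it. The mean level was 5.74-fold higher (log2 change 2.52, SE 0.36, adjusted p = 6.27e-07). Angptl4, a secreted inhibitor of lipoprotein lipase, had 25.6, 47.3 and 109 CPM in CCl4 livers and 29.1, 36.6 and 78.3 CPM in oil livers and was not called. Of the regulators, Ppara had 56.7, 68.2 and 75.2 CPM in CCl4 livers and 52.3, 70.2 and 104 CPM in oil livers (log2 change -0.11, 95% interval -0.51 to 0.29; 0.45 with library totals alone), and Creb3l3 had a change of -0.51 (adjusted p = 0.00104).

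**Figure D2:**
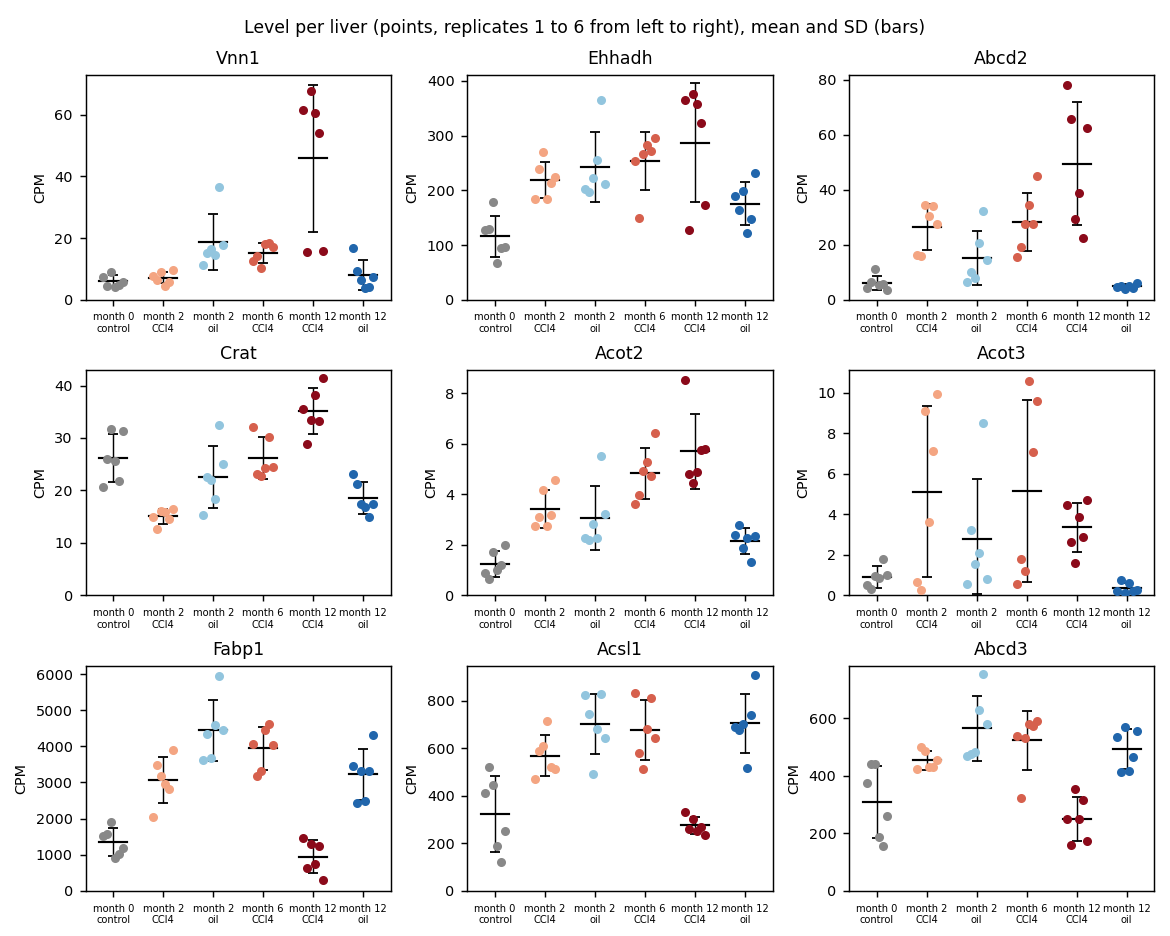
CPM of 9 genes in each liver (points, replicates 1 to 6 from left to right), with the mean (long bar) and SD (short bars, n = 6), by month and treatment. In month 12 CCl4 livers Abcd2 (22.6 to 78.1) lies above all month 12 oil livers (4.08 to 6.13) and Acsl1 (236 to 333) below them (519 to 909), while Vnn1 and Ehhadh fall into 4 high and 2 low livers.

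At month 2 fewer of the genes were called, all of them downward. No gene of the 37 was called higher and 4 were called lower in CCl4 livers, against 7.0% and 3.38% of all genes tested. At an unadjusted p under 0.05, 1 gene was higher (Abcd2) and 9 were lower, and DESeq2 and limma-voom each gave 0 higher and 5 lower. The median log2 change of the 37 was -0.19, beside -0.00 over all genes, and 28 of the 37 were fitted below 0. Every CCl4 liver was above every oil liver for 0 of the 37 and below for 5 (Slc25a20, Cpt2, Acadm, Pex11a and Vnn1), where 4.64% and 2.40% of all genes did so. Fitted on the CCl4 and oil livers of month 2 alone, 9 genes were called lower, and with scaling by library totals alone 1 was called higher and 2 lower.

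Pex11a (chr7:79735957-79743131, minus strand), which promotes peroxisome division, had 18.2, 19.8 and 22.8 CPM in month 2 CCl4 livers, against 26.5, 31.1 and 41.5 CPM in month 2 oil livers. It was 1.63-fold lower without overlap (log2 change -0.71, SE 0.12, adjusted p = 0.000189). Crat had 12.6, 15.4 and 16.5 CPM in CCl4 livers and 15.4, 22.2 and 32.4 CPM in oil livers, a log2 change of -0.58 (SE 0.14, adjusted p = 0.00487), the opposite sign to its month 12 change. Vnn1 had 4.62, 7.14 and 9.59 CPM in CCl4 livers and 11.2, 15.9 and 36.5 CPM in oil livers (log2 change -1.37, SE 0.35, adjusted p = 0.00961). Oil replicate 5 gave the 36.5 CPM, and without it the Vnn1 change was -1.06 (adjusted p = 0.0525) and the count of genes called lower was 2, with 1 called higher. Eci2, a peroxisomal isomerase for unsaturated chains, was lower (log2 change -0.48, adjusted p = 0.022), a call lost without oil replicate 2 or 5. With scaling by library totals alone, Crat (-0.38, adjusted p = 0.0638) and Eci2 (-0.27, adjusted p = 0.139) lost the call, and Pex11a and Vnn1 kept it.

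At month 6, CCl4 livers had 4 genes called higher (Crat, Abcd2, Acot3 and Acot2) and 0 called lower than the average of both oil groups, against 7.71% and 3.68% of all genes. At an unadjusted p under 0.05, 9 were higher and 1 lower (Creb3l3), DESeq2 gave 4 and 0, and limma-voom gave 3 and 0. With scaling by library totals alone, 27 were called higher and 0 lower. Abcd2 had 15.7, 27.6 and 45.0 CPM in month 6 CCl4 livers, against 6.35, 12.4 and 32.2 CPM in month 2 oil and 4.08, 4.89 and 6.13 CPM in month 12 oil. Its log2 change was 1.71 (SE 0.28, adjusted p = 6.59e-05). Acot2 had 3.61, 4.83 and 6.42 CPM in month 6 CCl4 livers, against 2.20, 2.56 and 5.52 CPM in month 2 oil and 1.31, 2.30 and 2.77 CPM in month 12 oil (log2 change 0.91, SE 0.19, adjusted p = 0.00155). Acot3 had 0.570, 4.44 and 10.6 CPM in month 6 CCl4 livers, against 0.577, 1.80 and 8.49 CPM in month 2 oil and 0.136, 0.240 and 0.752 CPM in month 12 oil (log2 change 2.35, SE 0.58, adjusted p = 0.00646), and its livers overlapped those of both oil groups. These calls depend on the oil group used, since against month 2 oil alone 0 of the 37 were called higher and 1 lower (Eci2), and against month 12 oil alone 8 were called higher. The Crat change at month 6 (0.35, adjusted p = 0.0412) lost its call when any 1 of 11 of the 18 livers was left out, with values between 0.29 and 0.35.

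**Figure D3:**
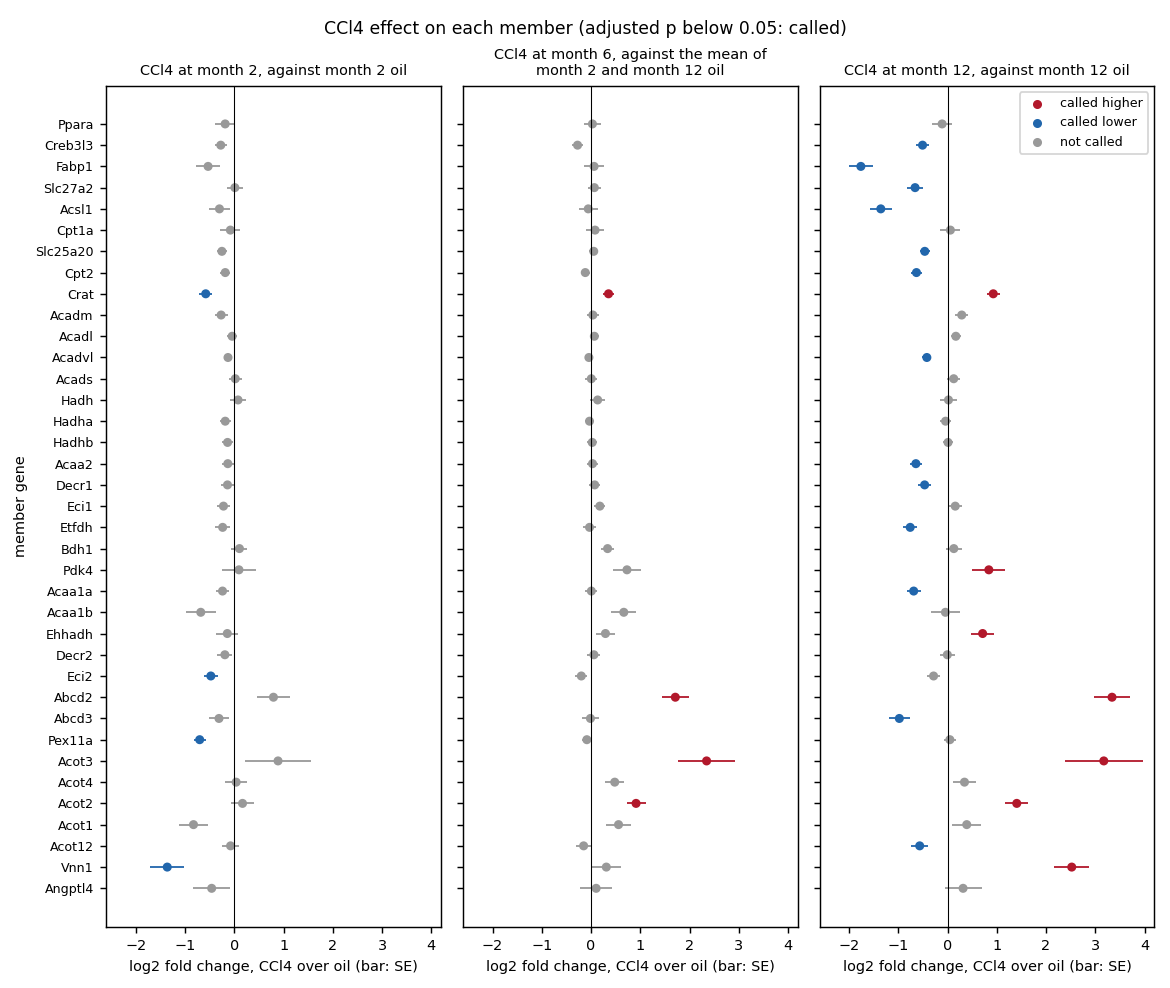
Log2 fold change of CCl4 over oil for the 37 genes at months 2, 6 and 12 (points), with its SE (bars); red and blue mark genes called higher and lower, grey those not called. Called genes number 0 higher and 4 lower at month 2, 4 and 0 at month 6, and 7 and 13 at month 12; with scaling by library totals alone, 4 of the 13 lower genes at month 12 lie just above 0.

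The CCl4 effect at month 12 was compared with that at month 2 by an interaction term, each effect being taken against its own oil group. The difference was called for 12 of the 37 genes, 7 with a higher and 5 with a lower effect at month 12, against 11.2% and 10.1% of all genes. Vnn1 differed most, with a log2 difference of 3.89 (SE 0.50, adjusted p = 8.93e-07), its CCl4 effect being 2.52 at month 12 and -1.37 at month 2. Crat differed by 1.51 (adjusted p = 8.44e-07) and Abcd2 by 2.55 (adjusted p = 0.000229). Pex11a differed by 0.75 (adjusted p = 0.00161), its CCl4 effect being 0.04 at month 12 and -0.71 at month 2.

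The 3 uptake and activation genes all had a lower effect at month 12 than at month 2: Fabp1 by -1.23, Acsl1 by -1.05 and Slc27a2 by -0.67 (adjusted p = 0.00927, 0.0128 and 0.0266). Acot2 (1.24, adjusted p = 0.006) was higher and stayed called in every fit without 1 liver. Acot1 (1.22), Acadm (0.56), Cpt2 (-0.45), Acaa2 (-0.51) and Slc27a2 each lost the call in 2 to 9 of the 24 fits that left out 1 liver. Acot1, Acadm and Cpt2 also lost it (adjusted p = 0.0931, 0.1 and 0.0669) in a fit without 4 libraries, as did Eci2 at month 2. The 4 libraries were CCl4 replicates 1 and 6 of month 2, and replicate 2 of each oil group. No single marker rule gives this choice. Month 12 oil replicate 2 was highest of its group for stellate (1030 CPM), macrophage (629 CPM) and erythroid (1780 CPM) markers. It had 129 CPM of pancreatic and 49.1 CPM of intestinal markers. Intestinal markers summed to 497 CPM in month 2 CCl4 replicate 6, left out, and to 703 CPM in replicate 5, kept. The libraries with the highest summed pancreatic acinar markers were kept: month 2 CCl4 replicate 5 (33465 CPM) and month 12 oil replicate 4 (28452 CPM). With scaling by library totals alone, 14 differences were called higher and 1 lower (Fabp1, -0.89).

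Among the CCl4 groups, more genes were called between months 6 and 12 than between months 2 and 6. Month 6 against month 2 gave 1 gene called higher (Crat, log2 change 0.79, adjusted p = 0.00496) and 0 called lower, against 0.274% and 0.228% of all genes; at an unadjusted p under 0.05 there were 8 and 0, and DESeq2 and limma-voom gave 1 and 0. Month 12 against month 6 gave 3 higher (Crat, Abcd2 and Vnn1) and 17 lower, against 20.6% and 18.6% of all genes. Fabp1 averaged 949 ± 458 CPM at month 12 and 3948 ± 590 CPM at month 6 (SD, n = 6 each), a log2 change of -2.06 (adjusted p = 9.16e-08). The Abcd2 call (0.80, adjusted p = 0.0486) was lost in 8 of 12 fits without 1 liver, and those of Creb3l3, Acot1 and Eci2 in 8, 9 and 7. Acaa1b averaged 359 ± 148 CPM at month 12 and 784 ± 213 CPM at month 6 (log2 change -1.13, adjusted p = 0.00378). Vnn1 averaged 45.9 ± 23.8 CPM at month 12 and 15.1 ± 3.23 CPM at month 6 (log2 change 1.60, adjusted p = 0.000356).

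Levels over the whole course differed from gene to gene. Mean Fabp1 was 1354 CPM at month 0, 3065 ± 633 in CCl4 and 4443 ± 842 in oil livers at month 2, 3948 ± 590 in CCl4 livers at month 6, and 949 ± 458 in CCl4 and 3223 ± 698 in oil livers at month 12 (SD, n = 6 each). The month 12 CCl4 range (302 to 1475 CPM) overlapped the month 0 range (918 to 1903 CPM) and no other group. Acsl1 likewise had 236 to 333 CPM in month 12 CCl4 livers and 120 to 520 CPM in month 0 livers, with its other 4 groups between 469 and 909 CPM. Abcd2 had its highest mean in month 12 CCl4 livers and its lowest in month 12 oil livers, with 26.5 ± 8.40 CPM in CCl4 and 15.3 ± 9.77 CPM in oil livers at month 2 and 6.09 ± 2.69 CPM at month 0. Ppara was highest in month 2 oil livers (123 to 150 CPM) and ranged most widely in month 6 CCl4 livers (42.6 to 148 CPM).

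Mitochondrial and peroxisomal genes had like medians. At month 12 the median log2 change was 0.02 in both classes, with a range of -0.76 to 1.40 over the 17 mitochondrial genes and -0.98 to 3.34 over the 10 peroxisomal ones, of which all but the low-level Abcd2 and Acot3 lay between -0.98 and 0.71. Called higher and lower were 2 and 6 mitochondrial genes, and 3 and 2 peroxisomal genes, beside 25.9% and 23.2% of all genes. With scaling by library totals alone these counts were 11 and 0, and 6 and 0. At month 2 the medians were -0.13 and -0.22, with 0 and 2 genes called lower (3.38% of all genes). At month 6 they were 0.05 and 0.18, with 1 and 2 genes called higher (7.71% of all genes). The difference of the medians, mitochondrial minus peroxisomal, was 0.08 at month 2, -0.12 at month 6 and -0.00 at month 12, and no test was made of it because the genes are not replicates.

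The mean log2(CPM + 1) of the 17 mitochondrial genes minus that of the 10 peroxisomal genes was 0.71 ± 0.14 in month 12 CCl4 livers and 1.11 ± 0.08 in month 12 oil livers (SD, n = 6 each). No CCl4 liver (0.53 to 0.93) reached the oil range (1.02 to 1.19). The peroxisomal mean was 5.93 in CCl4 and 5.59 in oil livers, and the mitochondrial mean 6.64 and 6.71. Among the peroxisomal genes Abcd2 (49.5 against 4.88 CPM) and Acot3 (3.35 against 0.363 CPM) had the largest log2 changes. Each gene has equal weight in these means, so low-level genes count as much as abundant ones. With 5 instead of 1 added to CPM, the class difference was 0.62 in CCl4 and 0.89 in oil livers. With 0.1 added it was 0.75 and 1.28. The part of Abcd2 and Acot3 in this gap was not tested on its own. The summed CPM, in which abundant genes weigh most, gave a peroxisomal to mitochondrial ratio of 0.49 ± 0.07 in CCl4 livers and 0.47 ± 0.04 in oil livers. The summed level of all 37 genes was 4244 to 7124 CPM in month 12 CCl4 livers and 8046 to 10917 CPM in month 12 oil livers, and Fabp1 alone averaged 949 and 3223 CPM in these groups.

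**Figure D4:**
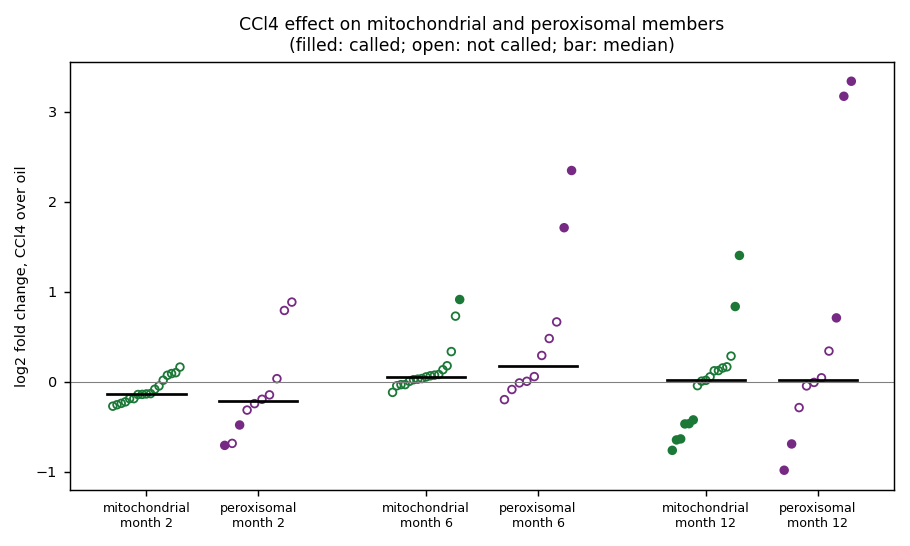
Log2 fold change of CCl4 over oil for each mitochondrial (green, 17) and peroxisomal (purple, 10) gene at months 2, 6 and 12; filled points are called, open points are not, and the bar is the class median. The medians lie between -0.22 and 0.18 with TMM scaling, and at month 12 the peroxisomal genes reach from -0.98 to 3.34.

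Age and oil were compared without CCl4. Month 12 oil livers against month 2 oil livers gave 0 genes called in either direction, against 0.0391% higher and 0.0326% lower of all genes. At an unadjusted p under 0.05, 0 were higher and 18 lower, limma-voom gave 0 and 0, and DESeq2 gave 0 and 7. The median of the 37 was -0.29, and 35 of 37 were fitted below 0. Ppara averaged 73 ± 18 CPM in month 12 oil livers and 134 ± 9.75 CPM in month 2 oil livers (SD, n = 6 each; log2 change -0.88, adjusted p = 0.0686). Abcd2 averaged 4.88 ± 0.741 CPM in month 12 oil livers and 15.3 ± 9.77 CPM in month 2 oil livers (log2 change -1.65, adjusted p = 0.0505), so the month 12 CCl4 effect on Abcd2 is taken against a lower oil level than the month 2 effect.

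Month 2 oil livers had 29 of the 37 genes called higher and 0 called lower than month 0 livers, against 14.8% and 16.4% of all genes; at an unadjusted p under 0.05 there were 32 and 0, with 30 and 0 in DESeq2 and 28 and 0 in limma-voom. Acot1 had 5.81, 9.84 and 13.6 CPM in month 2 oil livers and 0.463, 0.769 and 1.44 CPM in month 0 livers. It was 11.1-fold higher (log2 change 3.47, SE 0.35, adjusted p = 5.29e-09). Fabp1 had 3625 to 5952 CPM in month 2 oil livers and 918 to 1903 CPM in month 0 livers (log2 change 1.71, adjusted p = 4.15e-06). Bdh1 had 161 to 217 CPM in month 2 oil livers and 53.0 to 86.7 CPM in month 0 livers (log2 change 1.26, adjusted p = 7.96e-07). None of these 3 genes overlapped between the groups. Oil, age, handling and the day of sampling cannot be told apart here.

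Clock genes differed between livers, and within month 6 CCl4 livers the levels of Ppara and Acot3 differed with them. The log2 ratio of Arntl to Dbp, a pair of clock genes that peak at opposite times of day, was -5.14 to -2.90 in month 2 oil livers and -1.68 to 3.62 in month 0 livers. It was -5.78 to -1.0 in month 2 CCl4 livers, -5.38 to 3.03 in month 6 CCl4 livers, -2.79 to 1.89 in month 12 CCl4 livers and -3.82 to 2.94 in month 12 oil livers. Within month 6 CCl4 livers, replicates 1 to 6 had ratios of 2.19, 3.03, -1.39, -5.38, -5.14 and -5.14. The same livers had 67.1, 42.6, 81.9, 148, 121 and 145 CPM of Ppara, and 0.570, 1.78, 1.21, 10.6, 7.10 and 9.61 CPM of Acot3. The 3 livers with the lowest ratios had the most of both transcripts, and the part of the clock in these levels was not tested beyond the covariate fits. Replicate 2 also had the most macrophage, stellate, cholangiocyte and mesothelial marker transcripts of these livers, and the part of cell make-up was not tested. In month 12 CCl4 livers, replicate 6 had the highest ratio (1.89) and the most Ppara (75.2 CPM) and Acot3 (4.71 CPM).

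With the ratio as a covariate, 15 of the 29 genes stayed called higher in month 2 oil than in month 0 livers; the Ppara change there was 0.02 (adjusted p = 0.962) with the covariate and 0.74 (adjusted p = 0.00585) without it. Other lost calls kept much of their size: with and without the covariate, the log2 change of Acads was 0.37 and 0.37, that of Hadhb 0.34 and 0.37, that of Decr1 0.48 and 0.56 and that of Abcd2 1.04 and 1.33. Between month 2 oil (-5.14 to -2.90) and month 0 livers (-1.68 to 3.62) the ranges of the ratio did not overlap. The covariate fit therefore cannot separate the clock from the group in that comparison, for lost or kept calls. At month 12 the ranges of the ratio overlapped widely. With the covariate the month 12 changes were -1.86 for Fabp1, -1.36 for Acsl1, 3.27 for Abcd2 and 2.54 for Vnn1, and all 20 calls stayed, with Eci2 added as lower (-0.34, adjusted p = 0.0242).

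**Figure D5:**
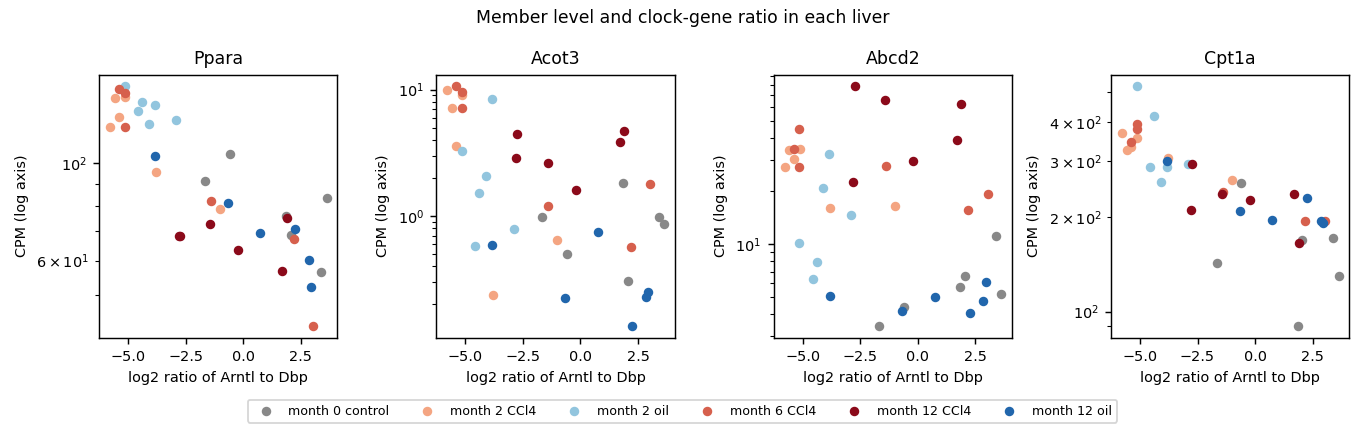
CPM (log axis) of Ppara, Acot3, Abcd2 and Cpt1a against the log2 ratio of Arntl to Dbp in each of the 36 livers, coloured by group. The 3 month 6 CCl4 livers with the lowest ratios have 121 to 148 CPM of Ppara and the other 3 have 42.6 to 81.9, while month 12 CCl4 livers have more Abcd2 than month 12 oil livers at every ratio.

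Genes of the same pathways outside the 37 were read from lists chosen for their known roles. Of 15 other peroxisomal genes tested (Acot5 was too low), 0 were called higher and 11 lower at month 12 of CCl4 (73.3% lower, beside 23.2% of all genes), with a median log2 change of -0.62; DESeq2 gave 0 and 12, limma-voom 0 and 11, and 1 was higher at an unadjusted p under 0.05. With scaling by library totals alone, 4 were higher and 4 lower. Nudt7, a hydrolase of peroxisomal CoA, averaged 92.1 CPM in CCl4 livers and 984 CPM in oil livers (log2 change -3.42, adjusted p = 1.2e-11). Scp2, a carrier and thiolase for branched chains and sterols, and Phyh, which starts the breakdown of phytanic acid, had changes of -1.40 and -1.17. Of 10 other mitochondrial genes, 1 was higher (Acad12, 1.11) and 5 were lower, beside 25.9% and 23.2% of all genes. With scaling by library totals alone these counts were 5 and 1. The lower genes included Etfa (-1.0) and Etfb (-0.66), which together pass electrons to Etfdh.

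Other PPAR alpha targets, many of them for lipid storage or omega oxidation, leaned the other way at month 12. Of 15 tested, 8 were higher and 2 were lower (Cyp4a32, -1.42, and Mgll, -0.80), beside 25.9% and 23.2% of all genes. With scaling by library totals alone, 12 were higher and 1 lower. The median log2 change was 1.00, and Ucp3 was too low to test. Cd36, a fatty acid uptake receptor, averaged 238 CPM in CCl4 livers and 57.1 CPM in oil livers (log2 change 2.06, adjusted p = 5.46e-09). Cyp4a14, an omega hydroxylase, averaged 19.3 CPM in CCl4 livers and 2.31 CPM in oil livers (log2 change 3.03, adjusted p = 0.00144). Month 2 oil livers averaged 24.7 CPM of Cyp4a14, above the month 12 CCl4 level. Cyp4a10 averaged 52.2 CPM in month 2 oil, 16.8 in month 12 oil and 69.7 in month 12 CCl4 livers. The month 6 and month 12 changes of both genes thus depend on the low month 12 oil level. Fgf21 had a change of 3.88 and Cidec, a lipid droplet protein, of 2.84. Cyp4a10 (1.81), Cyp4a14 (2.16) and Cd36 (1.18) were among the 5 of these genes called higher at month 6, with 0 lower; no other result at month 6 in these lists passed except Phyh (-0.39). At month 2, 1 was higher (Ucp2) and 2 were lower (Fgf21, -1.84, and Plin2, -0.72).

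Of 14 other regulators (7.14% and 42.9% called higher and lower, beside 25.9% and 23.2% of all genes), 1 was higher (Pparg, 1.13) and 6 were lower at month 12, including Rxra, the receptor partner of PPAR alpha (-0.39), the corepressor Ncor1 (-0.25) and the deacetylase Sirt1 (-0.72); with scaling by library totals alone, 9 were higher and 0 lower. Pparg was lower at month 2 (-1.43, adjusted p = 5.48e-05). Pancreatic acinar markers, from tissue next to the liver, summed to 9.26 to 33465 CPM over the libraries, highest in month 2 CCl4 replicate 5 and month 12 oil replicate 4; without the first, 4 genes were called lower at month 2, and without the second, 6 were higher and 13 lower at month 12. Cell type markers moved with the month 12 results: 6 of 9 hepatocyte markers were called lower (median -0.76), 4 of 8 cholangiocyte markers higher, with summed levels of 219 to 1099 CPM in CCl4 livers and 45.8 to 99.6 CPM in oil livers, and the summed level of 10 macrophage markers was 517 to 955 CPM in CCl4 livers and 299 to 629 CPM in oil livers. Summed mesothelial markers were 413 to 736 CPM in CCl4 livers and 189 to 274 CPM in oil livers, with 1 of 6 called higher and 0 lower, and proliferation markers were 52.4 to 107 CPM in CCl4 livers and 14.8 to 27.5 CPM in oil livers, with 6 of 6 called higher. Adipocyte markers summed to 32.6 to 73.3 CPM in CCl4 livers and 18.8 to 42.8 CPM in oil livers, with 1 of 6 tested higher (Fabp4) and 5 lower, the defining Adipoq among them. The part of these shifts in the changes of the 37 genes was not tested.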

How the data were processed

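RNA of 36 mouse livers was isolated with TRIzol, freed of rRNA and sequenced as stranded paired ends, per the labels' protocols. The authors deposited raw counts per gene symbol; reads were mapped with Biojupies to mm10, per the submitters' processing notes, which also name edgeR 3.30.3 and limma 3.44.3 without a role. For the annotation and counter, nothing was given in the sources at hand. The deposited counts were fitted once over the 6 groups of 6 with edgeR 4.0.16 (R 4.3.3; filterByExpr, TMM, quasi-likelihood F test), with Benjamini-Hochberg adjustment over 15338 of 32544 genes and a threshold of 0.05. Intervals are 95% intervals. DESeq2 1.42.0, limma-voom (limma 3.58.1), other scalings and filters, a replicate block, a clock covariate and leaving out livers were alternatives. The fit was tested on simulated data. The genes and lists were chosen with earlier results of these data known. Genes described at all groups were those called at a log2 change of at least 1 in a CCl4 comparison, and Ppara; from other lists, the 3 genes with the smallest p at month 12 and those called against the list median were named, and Rxra, Plin2, Ucp2, Cyp4a10 and Cyp4a14 were added after their values were seen. Totals of 19403247 to 28917545 counts set the precision; no pair of libraries of a group agreed within sampling noise.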

Additional observations from a re-analysis of the deposited data

Results flagged for a closer look

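In 22 of the 222 sets of 6 livers (37 genes in 6 groups) the highest or lowest liver stood apart by Dixon's criterion, 9.91% where chance gives about 1 in 20. The liver of month 2 oil replicate 5 was the highest for 12 genes: Cpt2 with 93.2 CPM (next 84.4), Acadm with 331 (245), Hadh with 239 (187), Acaa2 with 957 (823), Decr1 with 227 (172), Etfdh with 325 (250), Acaa1b with 1085 (698), Ehhadh with 365 (256), Decr2 with 162 (141), Acot3 with 8.49 (3.25), Acot2 with 5.52 (3.21) and Vnn1 with 36.5 (17.9). Month 6 CCl4 replicate 2 was the lowest for Eci1 with 46.5 CPM (next 64.3), Ehhadh with 149 (253) and Abcd3 with 322 (533). That liver also had the highest month 6 CCl4 sums of mesothelial (749 CPM), macrophage (1560 CPM), stellate (1320 CPM) and cholangiocyte (305 CPM) markers. The part of cell make-up in its low levels was not tested. In month 12 oil livers, single livers were highest for Cpt1a with 301 CPM, Slc25a20 with 81.4, Acadm with 243, Acot1 with 9.15 and Angptl4 with 78.3. Acot2 reached 8.53 CPM in 1 month 12 CCl4 liver, and Slc25a20 was lowest, at 63.5 CPM, in 1 month 2 CCl4 liver.

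The CCl4 effect differed between months 12 and 2, by the interaction term, for 12 genes (log2 scale, month 12 minus month 2): Vnn1 by 3.89, Abcd2 by 2.55, Crat by 1.51, Acot2 by 1.24, Acot1 by 1.22, Pex11a by 0.75, Acadm by 0.56, Fabp1 by -1.23, Acsl1 by -1.05, Slc27a2 by -0.67, Acaa2 by -0.51 and Cpt2 by -0.45.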

How the results depend on the processing

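Of the alternatives, scaling by library totals alone moved the most results. Among gene changes called with either scaling, 11 turned sign. Of the others, 18 lost the call, 51 gained it and 216 kept their side of the threshold. Sign turns of changes called with neither scaling are among the 216. Creb3l3, Slc25a20, Acadvl and Decr1 at month 12, among the 11, also lost the call. The genes called higher and lower became 1 and 2 at month 2, 27 and 0 at month 6, 22 and 2 at month 12, 14 and 1 for the interaction, and 0 and 6 for month 12 against month 2 oil. The 11 changes moved, at month 6, for Acadvl to 0.27, Hadha to 0.28, Etfdh to 0.28 and Pex11a to 0.23. At month 12 they moved for Ppara to 0.45, Creb3l3 to 0.038, Slc25a20 to 0.080, Acadvl to 0.12, Hadha to 0.50, Decr1 to 0.078 and Decr2 to 0.53. Fits of the compared groups only called 9 lower at month 2, 6 lower for month 12 against month 2 oil, and 2 higher for CCl4 at month 6 against month 2. Against month 2 oil alone, month 6 had 0 higher and 1 lower, and against month 12 oil alone 8 higher. With no low-count filter 2 interaction effects were lower. Month 12 against month 2 oil gave 1 lower with RLE, 1 with the 1 CPM filter and 7 with DESeq2. The clock covariate left 15 higher in month 2 oil against month 0. The cause was not tested. No other setting turned a sign among called changes.

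Leaving out 1 liver gave 0 to 1 higher and 2 to 5 lower at month 2, where the liver that moved both was month 2 oil replicate 5. Interaction effects called lower were 2 to 7, with 2 without month 12 CCl4 replicate 4 and 3 without month 12 CCl4 replicate 2 or 6, month 12 oil replicate 1 or month 2 CCl4 replicate 3. Month 12 against month 2 oil gave 0 to 2 lower (2 without month 12 oil replicate 6, 1 without month 2 oil replicate 1 or 3 or month 12 oil replicate 4), and month 2 oil against month 0 gave 0 to 1 lower (1 without month 2 oil replicate 5). All 13 lower calls at month 12 stayed in all 12 such fits.

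Equal replicate numbers did not pair the livers: over 90 pairs the correlation of deviations ran from -0.60 to 0.53 (median -0.03), 22 were over 0.1, and 5 of 36 livers correlated best with their own number. With the replicate block 0 genes were higher and 5 lower at month 2, 3 and 0 at month 6, and 7 and 13 at month 12.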
